A study of Mus musculus with 6 samples.

Results

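The genes described here encode receptors, transcription factors and inhibitors in the signalling of interleukin-6 (IL-6) and of other cytokines and hormones. They were measured in the epididymal fat pad (eWAT, epididymal white adipose tissue). They comprise 10 genes chosen by symbol: the receptor genes Il6ra and Il6st, the transcription factor genes Stat3, Stat5a, Stat5b and Stat6, and the inhibitor genes Socs1, Socs2, Socs3 and Cish. All 10 were found among the 55039 genes of the deposited tables, and all 10 passed the filter on low counts that left 17296 genes for testing. The tissue came from male C57BL/6 mice that were 6 to 7 weeks old when assigned to a group. In the CAC group (cancer-associated cachexia), 3 mice had received a subcutaneous injection of Lewis lung carcinoma (LLC) cells, a single mouse lung tumor line, in phosphate-buffered saline (PBS). In the CONT group, 3 mice had received PBS only. Every mouse was euthanized 28 days after injection, and 1 poly(A) mRNA library was made per mouse.

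As background, IL-6 binds the receptor chain encoded by Il6ra, and the complex recruits gp130, the product of Il6st, which is also the shared signalling chain of leukemia inhibitory factor, oncostatin M and other relatives of IL-6. Janus kinases bound to gp130 then phosphorylate STAT3, which moves to the nucleus and switches on target genes, among them Socs3, whose product binds gp130 and the kinases and shuts the signal off. STAT5A and STAT5B serve growth hormone, prolactin and several other cytokines and switch on Cish and Socs2, while STAT6 serves IL-4 and IL-13. In fat, IL-6 is known as a cytokine that promotes lipolysis, and the growth hormone and STAT5 branch is known for its part in adipocyte metabolism.

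The libraries held from 15713794 to 25926425 counts, and each CAC library was deeper than each CONT library. Levels are given in CPM, the read count of a gene relative to the TMM-normalized library size, where 1 CPM stood for 11.2 to 26.5 reads. CONT replicate 1 stood apart: genes of the mitochondrial genome took 30.2% of its counts against 3.89% to 5.04% in the other 5 libraries. Adiponectin (Adipoq), which defines adipocytes, lay between 1692 and 3372 CPM in the 6 libraries. Gpx5, a defining gene of the epididymis, stood at 5354 CPM in CONT replicate 3 and at most 0.36 CPM elsewhere, and the 6 epididymal markers together at 8157 CPM in that library, 223 CPM in CONT replicate 1 (Lcn5 70.1, Crisp1 68.4, Adam7 62.6 and Spint4 21.7 CPM), 3.46 CPM in CONT replicate 2 and at most 0.79 CPM in CAC. Fold changes are CAC over CONT from edgeR's quasi-likelihood test, and a gene was called at an adjusted p under 0.05. With that rule 0 of the 17296 genes were called (0%), so 0 of the 10 genes passed. An unadjusted p under 0.05 was found for 2294 genes, 6.31% of those tested being higher and 6.95% lower in CAC. DESeq2 called 965 genes (5.62% of 17160 with an adjusted p).

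Of the 10 genes, 6 had an unadjusted p under 0.05, each of them higher in CAC: Il6ra, Il6st, Stat3, Socs2, Socs3 and Cish. Their folds ran from 1.84 for Il6st to 5.76 for Cish. Without CONT replicate 2, Il6ra, Stat3 and Cish, 3 of the 10, were higher at an unadjusted p under 0.05, and the share over all genes tested was also smaller, at 4% against 6.31%. With all 6 libraries, in 5 of these 6 genes, all but Socs3, each CAC library lay above each CONT library, where 11.8% of all genes tested did so in that direction and 22.5% in either. For Stat5a, Stat5b, Stat6 and Socs1 the fold lay between 0.89 and 1.35 and the libraries of the groups overlapped. The median log2 fold change of the 10 genes was 0.96, against -0.06 over all genes tested. The 10 genes were chosen with earlier results of these data known, so these counts and medians are descriptions. DESeq2 called 4 of the 10, namely Il6ra, Stat3, Socs2 and Cish, and voom with sample quality weights called Il6ra and Stat3 (5.51% of all genes tested). In whole tissue, a change in the share of a cell type and a change in the RNA of each cell cannot be told apart.

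**Figure D1:**
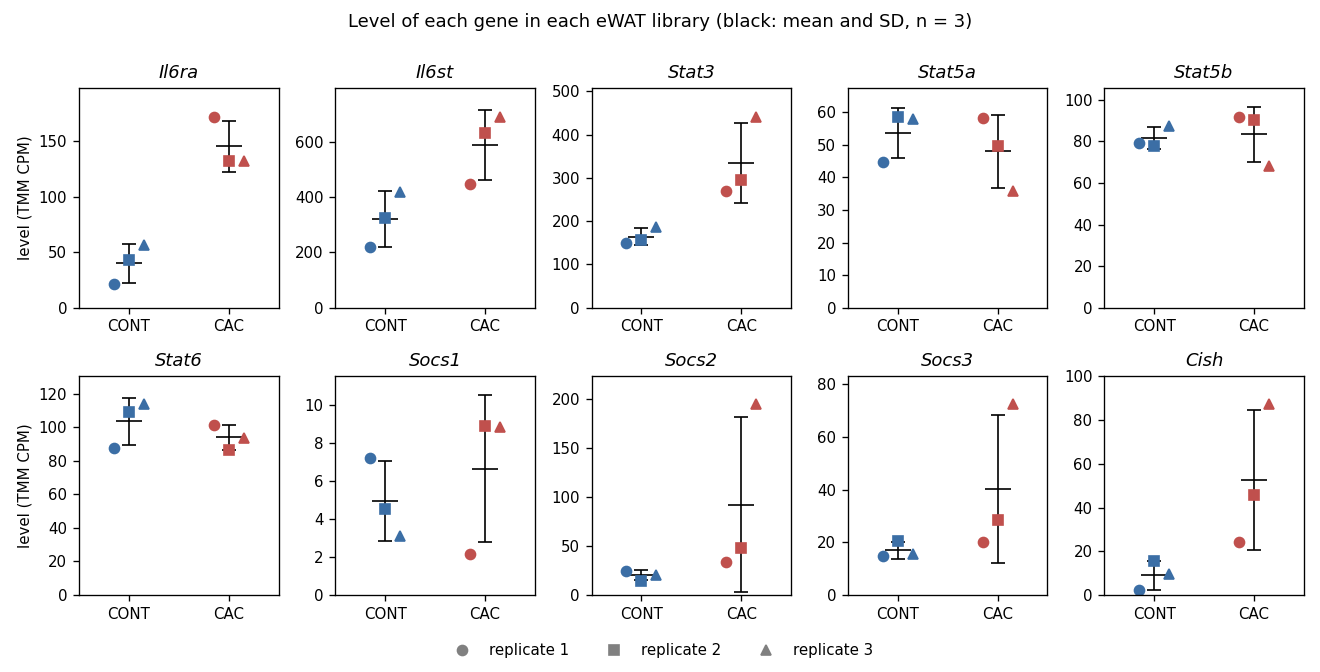
Level of each of the 10 genes in each library, in TMM-normalized CPM on a linear axis from 0, with CONT in blue and CAC in red, the marker giving the replicate, and the black bar the mean and SD of 3 mice. Il6ra, Il6st, Stat3, Socs2 and Cish do not overlap between the groups, and CAC replicate 3 is the highest library for Il6st, Stat3, Socs2, Socs3 and Cish.

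Il6ra (ENSMUSG00000027947), the chain that binds IL-6 itself, lies on the minus strand of chromosome 3 from 89864059 to 89913196 (GRCm38). Its level was 21.2, 42.8 and 56.1 CPM in CONT replicates 1 to 3 and 172, 132 and 132 CPM in CAC replicates 1 to 3. All 3 CAC mice stood well above the CONT mice, and CONT replicate 1 was lowest. On average CAC was 3.62 times higher, a log2 fold change of 1.85 (standard error, SE, 0.37, 95% interval 0.97 to 2.74, edgeR adjusted p = 0.224). DESeq2 called the gene (log2 fold change 1.89, adjusted p = 2.3e-04). With 1 library left out at a time, the edgeR value stayed between 1.56 and 2.19. CAC replicate 1 was the highest library for Il6ra and the lowest CAC library for Il6st, Stat3, Socs1, Socs2, Socs3 and Cish.

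Il6st (ENSMUSG00000021756), at 112464070 to 112510086 of chromosome 13 (plus strand), was the most abundant of the 10 genes on the scale of FPKM, which takes gene length into account. It held 218, 323 and 418 CPM in CONT and 447, 629 and 689 CPM in CAC. The groups did not overlap, but the highest CONT and the lowest CAC library lay close together. Its log2 fold change was 0.88 (SE 0.33, 95% interval 0.10 to 1.66, edgeR adjusted p = 0.339), and DESeq2 did not call it (adjusted p = 0.0801). Without CONT replicate 1, the library with the high mitochondrial share, the value was 0.68.

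Stat3 (ENSMUSG00000004040), the factor that gp130 activates, lies on the minus strand of chromosome 11 from 100885098 to 100939540. It stood at 149, 156 and 186 CPM in CONT and at 269, 294 and 441 CPM in CAC. The 3 CONT mice lay close together, and every CAC mouse was above them. CAC was 2.04 times CONT, with a log2 fold change of 1.03 (SE 0.27, 95% interval 0.40 to 1.67, edgeR adjusted p = 0.256), and 0.79 without CAC replicate 3. DESeq2 gave 1.06 with an adjusted p of 0.0064, and 0.82 with an adjusted p of 0.0078 without that library, where it called 3.53% of all genes.

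The other 3 STAT genes showed no difference of that size. Stat5b (ENSMUSG00000020919), also on the minus strand of chromosome 11, from 100780731 to 100850724, held 79.4, 78.0 and 87.5 CPM in CONT and 91.9, 90.3 and 68.3 CPM in CAC. Its log2 fold change was 0.03 with a 95% interval from -0.41 to 0.48, so the test does not exclude a fold between 0.75 and 1.39. Stat5a (ENSMUSG00000004043) lies between Stat5b and Stat3 on the plus strand, from 100859351 to 100885169. It held 44.9, 58.6 and 57.8 CPM in CONT and 58.4, 49.6 and 35.9 CPM in CAC, with a log2 fold change of -0.16 (95% interval -0.72 to 0.39). For Stat5a and Stat5b alike the lowest of the 6 libraries was CAC replicate 3, the library in which Stat3 was highest. Stat6 (ENSMUSG00000002147), at 127642986 to 127660957 of chromosome 10 (plus strand), held 87.3, 109 and 114 CPM in CONT and 101, 86.6 and 93.5 CPM in CAC. Its log2 fold change was -0.14 (95% interval -0.58 to 0.30).

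The 3 STAT genes on chromosome 11 share some bases or sequence, and whether their counts mix was not tested. Stat3 and Stat5a overlap by 72 bases on opposite strands, and Stat3 held 34894 reads over the 6 libraries against 6723 for Stat5a. Stat6 overlaps Nab2 by 40 bases, Il6ra an antisense gene and Cish a pseudogene, also on opposite strands, and these held 1703, 85 and 67 reads. Whether the counting used the strand is not given in the sources used here. Stat5a and Stat5b are close paralogs, and 2.85% of the 100-base windows of the longest Stat5a transcript in GENCODE M21, and 5.18% of those of the longest Stat5b transcript, occur without a mismatch in the other gene.

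**Figure D2:**
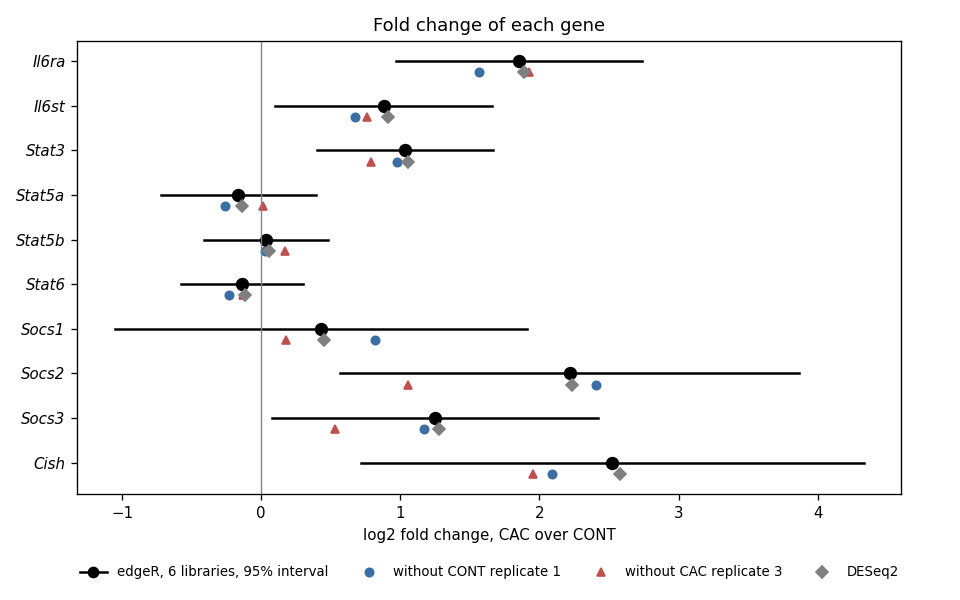
Log2 fold change of each gene, CAC over CONT: black points and lines are edgeR's estimates with 95% intervals from 6 libraries, and the points below them are the values without CONT replicate 1 (blue), without CAC replicate 3 (red) and from DESeq2 (grey). Leaving out CAC replicate 3 moved Socs2 from 2.22 to 1.06 and Socs3 from 1.25 to 0.53, while Il6ra stayed at 1.93.

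Socs3 (ENSMUSG00000053113), the feedback inhibitor of gp130 and a target of STAT3, lies on the minus strand of chromosome 11 from 117966079 to 117970047. It held 14.6, 20.6 and 15.69 CPM in CONT and 20.2, 28.5 and 72.5 CPM in CAC. CAC replicate 3 alone stood far above the rest, and CAC replicate 1 lay just below CONT replicate 2. Fitted over the 6 libraries, the log2 fold change was 1.25 (SE 0.49, 95% interval 0.08 to 2.42, edgeR adjusted p = 0.356). Without CAC replicate 3 it was 0.53, and DESeq2 did not call the gene with 6 libraries (adjusted p = 0.143).

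Cish (ENSMUSG00000032578), a target of STAT5 whose product damps the receptors that act through STAT5, is encoded at 107296026 to 107302784 of chromosome 9 (plus strand). It had the largest log2 fold change of the 10 genes, with 2.23, 15.4 and 9.49 CPM in CONT and 24.2, 45.8 and 87.3 CPM in CAC. The groups did not overlap. Among the CONT mice, replicate 1 was lowest at 25 reads, and the mice within each group differed several-fold. This gave a log2 fold change of 2.52 (SE 0.75, 95% interval 0.72 to 4.33, edgeR adjusted p = 0.283). It was 3.14 without CONT replicate 2, 2.09 without CONT replicate 1 and 1.95 without CAC replicate 3. DESeq2 gave 2.58 with an adjusted p of 0.0119, and without CAC replicate 3 the adjusted p was 0.158.

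Socs2 (ENSMUSG00000020027), which restrains growth hormone signalling and is also a target of STAT5, lies on the minus strand of chromosome 10 from 95385362 to 95417180. It held 24.8, 14.6 and 20.3 CPM in CONT and 33.6, 48.5 and 195 CPM in CAC. The groups did not overlap, and CAC replicate 3 stood far above the other CAC mice. Its log2 fold change was 2.22 (SE 0.69, 95% interval 0.57 to 3.87, edgeR adjusted p = 0.290), and 1.06 without that library. DESeq2 gave an adjusted p of 0.0246 with 6 libraries and 0.111 without CAC replicate 3.

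Socs1 (ENSMUSG00000038037), the inhibitor best known for damping interferon signalling, lies on the minus strand of chromosome 16 from 10782240 to 10785536 and was the least covered of the 10 genes. Its reads numbered 81, 103 and 68 in CONT and 53, 220 and 234 in CAC. CAC replicate 1 was the lowest of the 6 libraries at 2.18 CPM, while CAC replicates 2 and 3 were the highest at 8.88 and 8.84 CPM. Its log2 fold change was 0.43 with a 95% interval from -1.05 to 1.91, which does not exclude a fold between 0.48 and 3.77.

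The promoters of Cish and Socs3 are shown because they were the only ones, among the 9 genes with a promoter sequence, with a match to TTCNNNGAA, the spaced palindrome to which STAT dimers bind. RefSeq windows of 300 bases (GRCm38.p6, 250 before and 50 after the transcript start) were found for 9 of the 10 genes, 11 windows in all, and Socs2 had no entry. The palindrome reads the same on both strands and is in capitals here, each window being printed 5′ to 3′ on the strand of its gene. The window of Cish lies at chr9:107296409-107296708 on the plus strand and that of Socs3 at chr11:117969317-117969616 on the minus strand.
Cish: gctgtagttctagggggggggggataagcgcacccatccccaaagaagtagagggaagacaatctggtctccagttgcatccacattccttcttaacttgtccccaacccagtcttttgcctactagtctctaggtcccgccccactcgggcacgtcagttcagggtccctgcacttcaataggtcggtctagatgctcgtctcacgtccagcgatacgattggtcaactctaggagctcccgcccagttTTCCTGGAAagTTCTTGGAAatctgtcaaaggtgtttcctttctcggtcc
Socs3: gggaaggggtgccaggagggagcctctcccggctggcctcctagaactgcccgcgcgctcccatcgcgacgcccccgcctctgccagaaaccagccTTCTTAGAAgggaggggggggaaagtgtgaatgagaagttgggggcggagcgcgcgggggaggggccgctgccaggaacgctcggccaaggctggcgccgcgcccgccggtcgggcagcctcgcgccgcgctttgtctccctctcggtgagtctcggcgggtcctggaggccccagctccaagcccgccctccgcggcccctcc
The Cish window held 2 matches, TTCCTGGAA and TTCTTGGAA, which begin at bases 1 and 12 counted from the transcript start. The Socs3 window held 1, TTCTTAGAA, which begins at base -154. Of 32851 promoter windows of this length, 8.3% held at least 1 match and 0.457% held 2 or more. The form of the palindrome with 4 spacer bases had no match in the 11 windows and was present in 6.95% of all windows. A match of letters is a description and does not show that a factor was bound in these samples.

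On the FPKM scale, the order of the levels in CONT was Il6st (23.2 ± 7.15, SD, n = 3), Stat6 (18.9 ± 2.45), Stat3 (13.8 ± 1.64), Stat5b (11.9 ± 0.746), Stat5a (6.06 ± 0.825), Socs3 (4.71 ± 0.848), Il6ra (3.72 ± 1.62), Socs2 (1.68 ± 0.444), Socs1 (1.37 ± 0.594) and Cish (1.13 ± 0.816). Only the steps from Stat6 to Stat3 and from Stat5b to Stat5a separated neighbouring genes without overlapping libraries. In CAC, Stat3 (28.7 ± 7.88) stood above Stat6 (17.4 ± 1.503) with no overlap, and Il6ra (13.7 ± 2.29) had moved beside Stat5b (12.3 ± 1.97), with overlapping libraries. Il6st remained first in CAC (43.3 ± 9.02) and overlapped with Stat3.

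Ratios between genes of the same library do not depend on how libraries are scaled, and 3 were compared. The ratio of Stat3 to Stat5b FPKM was 1.09, 1.17 and 1.24 in CONT and 1.70, 1.89 and 3.75 in CAC. Il6ra stood at 0.125, 0.170 and 0.172 of Il6st in CONT and at 0.493, 0.269 and 0.246 in CAC. Socs3 to Cish moved the other way, from 14.6, 2.97 and 3.67 in CONT to 1.85, 1.38 and 1.84 in CAC. None of the ratios overlapped between the groups. The pairs were chosen with earlier results of these data known, so this separation is a description. How many of all gene pairs separate in this way was not counted. Averaged as log2, the ratio was 1.98 times higher in CAC for Stat3 to Stat5b, 2.07 times higher for Il6ra to Il6st, and 3.23 times lower for Socs3 to Cish. Each had p = 0.1 in an exact two-sided permutation test, also after adjustment over the 3, which is the smallest p that 3 mice against 3 allow. The difference for Socs3 to Cish was -1.69 on the log2 scale and -0.98 without CONT replicate 1, and that for Stat3 to Stat5b was 0.98 and 0.63 without CAC replicate 3.

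**Figure D3:**
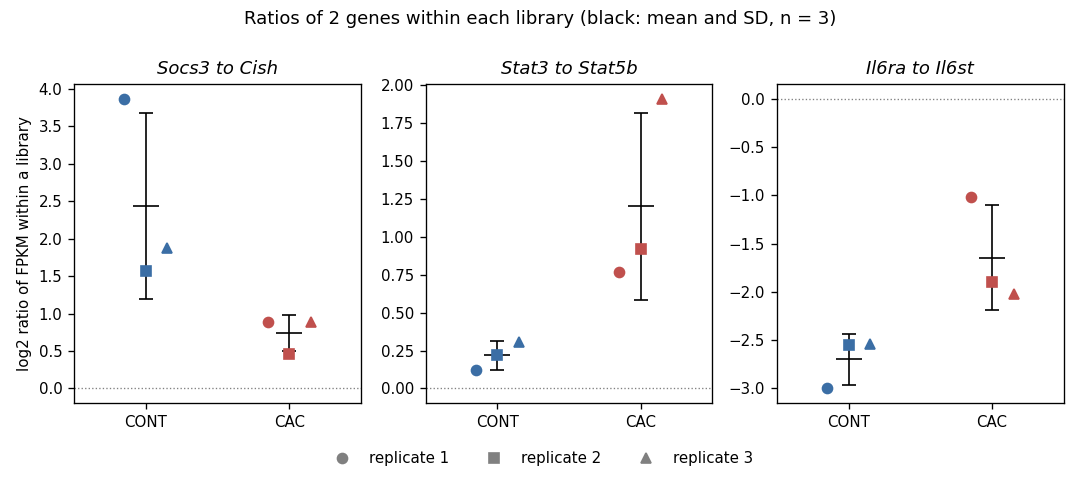
Log2 ratio of the FPKM values of 2 genes within each library (y axis), for CONT (blue) and CAC (red), with the mean and SD of 3 mice in black and the marker giving the replicate. The groups do not overlap for any of the 3 ratios, and Socs3 to Cish is lower in CAC while the other ratios are higher. The pairs were chosen with earlier results of these data known.

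Of the ligands of gp130, Il6 itself, outside the naming rule but the ligand of Il6ra, had 1, 4 and 5 reads in CONT and 1, 7 and 12 reads in CAC, too few to be tested. Of 8 ligand genes, 4 were tested and 1 had an unadjusted p under 0.05, against 13.3% of all genes tested in either direction. It was Lif, the gene of leukemia inhibitory factor, with 1.69, 1.93 and 3.07 CPM in CONT and 0.82, 0.69 and 0.49 CPM in CAC. All 3 CAC libraries lay below the CONT libraries for Lif, with a log2 fold change of -1.74 (SE 0.48, edgeR adjusted p = 0.268, DESeq2 adjusted p = 0.0489). Ctf1 (cardiotrophin 1), also outside the rule, was the most abundant of the 4 tested per length, with 7.31, 7.14 and 9.72 CPM in CONT and 8.25, 7.99 and 7.89 CPM in CAC and a mean of 3.55 FPKM in CONT, close to that of Il6ra. Osm (oncostatin M) and Clcf1 had log2 fold changes of 0.20 and -0.03, whose direction changed when single libraries were left out.

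Among the 6 receptors that pair with gp130 or resemble it, 2 were higher in CAC at an unadjusted p under 0.05 and 0 were lower. Over all genes tested, 6.31% were higher and 6.95% lower at that p. Osmr, the oncostatin M receptor, held 41.6, 50.9 and 55.1 CPM in CONT and 84.8, 78.8 and 112 CPM in CAC, without overlap. Lifr, the receptor of leukemia inhibitory factor, held 54.5, 91.5 and 97.6 CPM in CONT and 153, 127 and 117 CPM in CAC, again without overlap. Their log2 fold changes came to 0.90 (SE 0.21) and 0.70 (SE 0.27), with edgeR adjusted p of 0.238 and 0.348. DESeq2 called Osmr (adjusted p = 0.0063) and not Lifr (adjusted p = 0.134). Il27ra had a log2 fold change of -0.67 and an unadjusted p of 0.123. The list's median was -0.30, opposite in sign to the median of the 10 genes.

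Of 12 receptors that act through STAT5, STAT6 or related factors, 3 were higher and 2 lower in CAC at an unadjusted p under 0.05. The shares over all genes tested were 6.31% and 6.95%, and the list's median log2 fold change was 0.32. Il4ra, the IL-4 receptor chain upstream of STAT6, held 57.2, 53.7 and 80.8 CPM in CONT and 121, 105 and 166 CPM in CAC. Csf2rb, the shared beta chain of the receptors for GM-CSF and IL-3, held 63.9, 91.1 and 99.6 CPM in CONT and 144, 149 and 163 CPM in CAC. Neither gene overlapped between the groups, with log2 fold changes of 1.03 (SE 0.26) and 0.84 (SE 0.22). Il10rb, a chain of the IL-10 receptor, was lower, with 60.2, 34.0 and 41.2 CPM in CONT and 25.01, 21.6 and 19.8 CPM in CAC and a log2 fold change of -1.03 (SE 0.26). The edgeR adjusted p of these 3 genes lay above 0.05, while DESeq2 called all 3. Ghr, the growth hormone receptor, was named after its values were seen: it held 601, 820 and 848 CPM in CONT and 1176, 826 and 661 CPM in CAC, with a log2 fold change of 0.23 (SE 0.32).

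None of the 4 Janus kinase genes had an unadjusted p under 0.05. Jak1, the kinase most used by gp130, had a log2 fold change of 0.36, Jak3 of 0.19, Jak2 of 0.17 and Tyk2 of -0.31. Without CONT replicate 1 Jak1 was at 0.19 and Jak2 at -0.016, without CONT replicate 3 they were at 0.57 and 0.33, and without CAC replicate 3 Tyk2 was at -0.16. Of the remaining STAT genes, Stat2, which acts downstream of type I interferon, was lower in CAC at an unadjusted p under 0.05, with 58.4, 85.0 and 41.2 CPM in CONT and 36.5, 31.1 and 23.6 CPM in CAC. Its log2 fold change was -1.02 (SE 0.31, edgeR adjusted p = 0.287). Stat4 had a log2 fold change of 0.65 (SE 1.47), with CONT replicate 2 at 10.4 CPM, CAC replicate 3 at 16.5 CPM and the other 4 libraries at 0.63 to 1.25 CPM.

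Of the other inhibitors Socs4, Socs5, Socs6 and Socs7, only Socs4 had an unadjusted p under 0.05 (13.3% of all genes tested did). Its log2 fold change was 0.38, while the other 3 lay between 0.15 and 0.28. Leaving out single libraries took Socs5 from 0.071 to 0.33 and Socs7 from 0.12 to 0.57. Of 9 PIAS and phosphatase genes, which restrain STATs and kinases, 0 had an unadjusted p under 0.05, and the median log2 fold change was 0.00. The 3 with the smallest p were Pias3 (-0.51, and -0.31 without CONT replicate 1), Ptpn6 (-0.67, and -0.38 without CONT replicate 2) and Dusp22 (0.29).

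Genes known as targets of the STATs were mixed in direction. Of 18 STAT3 targets, 2 were higher and 1 lower in CAC at an unadjusted p under 0.05 (6.31% and 6.95% over all genes tested). Their median log2 fold change was 0.23. Cebpd, a transcription factor of the acute phase and of early fat cell differentiation, held 57.7, 33.9 and 30.3 CPM in CONT and 127, 119 and 138 CPM in CAC. Myc, a regulator of cell growth, held 14.4, 11.8 and 12.2 CPM in CONT and 33.0, 35.8 and 68.8 CPM in CAC. For both genes the groups were far apart, with log2 fold changes of 1.66 (SE 0.28) and 1.84 (SE 0.33). Saa3, an acute-phase protein made in mouse fat, was lower, with 16.6, 62.3 and 37.6 CPM in CONT and 5.75, 12.8 and 14.4 CPM in CAC and a log2 fold change of -1.82 (SE 0.56). DESeq2 called all 3, and edgeR called none after adjustment.

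Of 8 STAT5 targets other than Cish and Socs2, 0 were higher and 2 lower at an unadjusted p under 0.05. The shares over all genes tested were 6.31% and 6.95%. Ccnd1, the cyclin D1 gene, held 14.5, 49.1 and 55.3 CPM in CONT and 13.7, 11.6 and 9.97 CPM in CAC, so CONT replicate 1 lay beside the CAC libraries. Bcl6, which STAT5 is known to repress, held 89.0, 20.3 and 25.4 CPM in CONT and 18.8, 14.0 and 14.4 CPM in CAC. They had log2 fold changes of -1.75 and -1.51, and that of Bcl6 was -0.52 without CONT replicate 1. Pim1, which is also on the STAT3 list, had a log2 fold change of 1.00 that was 0.14 without CAC replicate 3. Of 10 STAT6 targets, 8 were tested, with 2 higher and 1 lower at an unadjusted p under 0.05 and a median of -0.50. Chil3, which IL-4 induces in macrophages, was highest in CAC replicate 3, at 166 CPM, against 8.62 and 28.01 CPM in the other CAC mice and at most 3.15 CPM in CONT. This was a log2 fold change of 5.12, and of 3.28 without CAC replicate 3. Batf3 had a log2 fold change of -1.22.

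**Figure D4:**
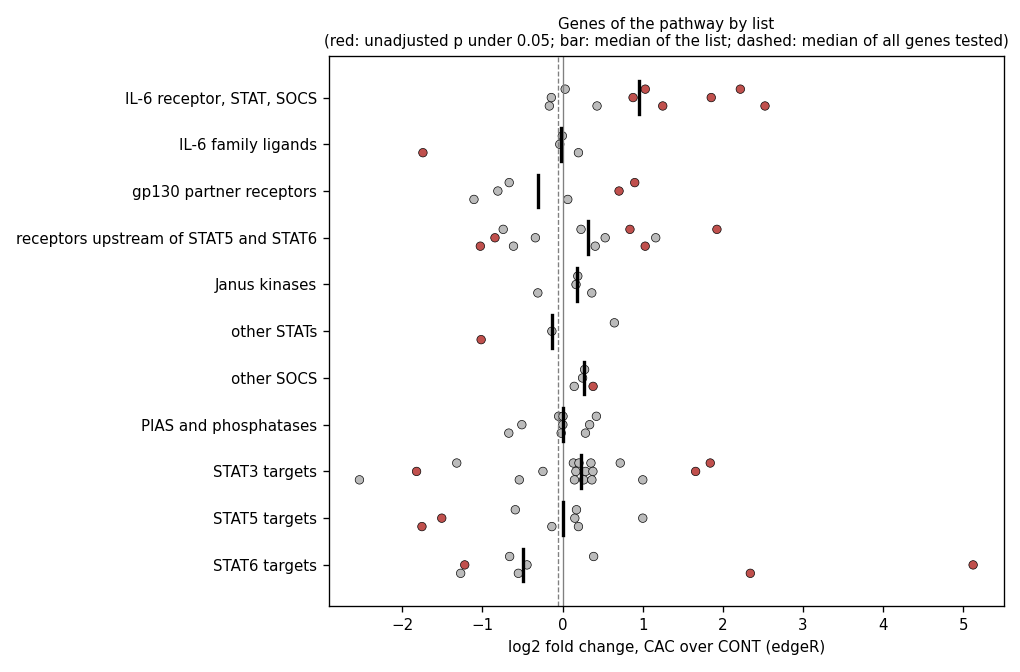
Log2 fold change (x axis, CAC over CONT) of every tested gene of the 10 receptor, STAT and SOCS genes and of the pathway lists (y axis), in red where the unadjusted p was under 0.05, with the median of each list as a black bar and that of all genes tested as a dashed line. The median of the 10 genes is 0.96, and the medians of the other lists lie between -0.50 and 0.32. The 10 genes and the lists were chosen with earlier results of these data known.

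Over the lists without repeats, 74 of 80 pathway genes were tested, of which 10 were higher and 8 lower at an unadjusted p under 0.05 (6.31% and 6.95% over all genes tested), and their median log2 fold change was 0.15. None had an edgeR adjusted p under 0.05, and DESeq2 called 11 (5.62% over all genes).

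The genes with the pattern most like a given member were found by the root mean square difference of log2(CPM + 1) over the 6 libraries, each gene centred on its own mean, among 10164 genes of at least 10 CPM on average. For Stat3 these were Ccdc152 (0.077), Cpeb4 (0.085), Bnip3l-ps (0.094), Pex5 (0.102) and Sidt2 (0.103), and among the 10 genes the closest was Il6st (0.238). For Socs3 they were Psma6 (0.163), Arid3a (0.176), Slc22a15 (0.235), Tnip1 (0.244) and Mdh1 (0.267). For Cish they were Rnf125 (0.282), Slfn4 (0.327), Ifitm1 (0.378), Slc39a14 (0.455) and Lepr (0.474). Lepr, the leptin receptor, which signals through STAT3 and STAT5, held 2.05, 7.66 and 9.94 CPM in CONT and 14.3, 25.99 and 34.8 CPM in CAC.

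The summed neutrophil markers were highest in CAC replicate 3, as were Il6st, Stat3, Socs2, Socs3 and Cish. All 6 markers on the list were higher in CAC on average, 4 of them at an unadjusted p under 0.05, and 5 without overlap between the groups, where over all genes tested 6.31% and 11.8% were so. Their summed level was 5.26, 42.8 and 57.0 CPM in CONT and 149, 225 and 1063 CPM in CAC. S100a8 stood at 0.80, 12.6 and 17.99 CPM in CONT and at 48.5, 88.4 and 492 CPM in CAC, and the defining marker Ly6g at 0 to 0.14 CPM in CONT and 0.66 to 3.25 CPM in CAC. S100a8 and S100a9 held 492 and 461 of the 1063 CPM in CAC replicate 3. Csf3r was highest in CAC replicate 1, at 24.6, 21.3 and 23.5 CPM in CAC, and Camp was lowest in that library, at 0.33 CPM. In the sum, CONT replicate 1 was lowest and CAC replicate 3 highest, as for Il6st, Stat3, Socs3, Cish and Chil3. For Il6st and Stat3 all 6 libraries stood in the order of the summed markers. The 5 genes closest to Stat3 stood in that order too, and the share of all genes that do so was not counted. The part of neutrophils in the levels of Il6st, Stat3, Socs2, Socs3 and Cish was not tested. Summed macrophage markers ran from 725 to 2062 CPM in CONT and from 879 to 1625 CPM in CAC, and summed adipocyte markers from 22852 to 52445 CPM in CONT and from 35863 to 48411 CPM in CAC, with the groups overlapping for both.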

How the data were processed

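The authors made poly(A) mRNA libraries, used HISAT2 2.0.5 with an Ensembl release 94 reference (GRCm38), and counted reads per gene. The submitters' processing notes name featureCounts 1.5.0-p3. The deposited counts are whole numbers without normalization, and the deposited FPKM values are these counts divided by gene length and by 1 constant per library. That constant is not the total count but 0.879 (CONT replicate 1) to 1.44 (CONT replicate 2) times it, and it follows the TMM-normalized size closely. Whether counting used the strand, and the read length, are not given in the sources used here. Loci without a gene name held 0.264% of the counts and were kept.

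The fits used edgeR 4.0.16 under R 4.3.3 (TMM, filter on low counts by group, robust quasi-likelihood test, condition as the only term, Benjamini-Hochberg adjustment over all genes tested). Standard errors are the log2 fold change divided by the root of the F statistic. The study used DESeq2. Here DESeq2 1.42.0 and voom with sample quality weights (limma 3.58.1) were alternatives, along with other scalings, filters, libraries left out and limma on log2(FPKM + 1) or log2(FPKM + 0.1) for genes that reached 0.5 FPKM in 3 or more libraries. The edgeR code was tested on simulated data. The common dispersion was 0.265, and intervals at the 95% level are for the log2 fold change between the groups. They rest on the spread between mice as estimated by the fit.

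The 10 genes, the pathway and marker lists and the tests were chosen with earlier results of these data known. Named genes are the 10, the 3 of each pathway list with the smallest unadjusted p (all in lists of 4 or fewer), and the 5 closest to Stat3, Socs3 and Cish; Ghr, Il6, Ctf1 and marker genes were added. Some genes counted in the lists are not reported here by name. DESeq2 with a library left out was added after the data were seen.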

Additional observations from a re-analysis of the deposited data

How the results depend on the processing

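With edgeR, 0 of the 10 genes were called under any of the scalings, filters, left-out libraries or the replicate block. The number of genes called over the whole table was 0 in edgeR, 1 with the replicate block, 965 in DESeq2 (2102 without CONT replicate 1, 615 without CAC replicate 3), 953 in voom with sample quality weights, and 5 and 6 on FPKM with a pseudocount of 1 and 0.1 (0 with a pseudocount of 1 and no filter, where 2215 genes had an unadjusted p under 0.05). Of the 10 genes, DESeq2 called 4, 4 without CONT replicate 1 (11% of all genes with an adjusted p) and 2 without CAC replicate 3 (3.53%), and voom called 2. DESeq2 called 11 and voom 9 of the pathway genes (5.62% and 5.51% over all genes). Of the 10 genes, from 3 (without CONT replicate 2: Il6ra, Stat3 and Cish) to 6 had an unadjusted p under 0.05 in edgeR when 1 library was left out, where from 3.55% to 7.3% of all genes were higher at that p. The number without overlap was 5, and 6 with RLE scaling or without mitochondrial genes, where Socs3 joined, and 5 to 7 with 1 library left out, where 3 libraries against 2 separate more easily and the share over all genes was 28.6% to 40.6% against 22.5%. Equal replicate numbers did not pair the libraries: their deviations from the group means correlated at -0.15 to 0.06 across 5779 genes, and with the replicate block 5 of the 10 had an unadjusted p under 0.05, with the direction of all 10 kept.

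Among small differences the direction was not stable, or the size moved: Stat6 ran from -0.23 to -0.052 and Socs1 from 0.17 to 0.88 with 1 library left out. In the same fits, Stat5a ran from -0.28 to 0.015 (0.040 in DESeq2 without CAC replicate 3), Stat5b from -0.014 to 0.17, Osm from -0.61 to 0.53, Clcf1 from -0.25 to 0.26, Jak2 from -0.016 to 0.33 and Stat4 from -1.86 to 3.12. Clcf1 was also 0.041 with no filter, 0.017 with the replicate block, 0.31 in voom, and 0.0070 and 0.031 on FPKM with a pseudocount of 1 (with or without the filter) and 0.1, and voom gave -0.046 for Jak2 and -0.42 for Stat4. The cause of these changes was not tested.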

Other observations

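Other cell types were measured by marker lists in the same fit, and 0 of their genes had an edgeR adjusted p under 0.05. Over all genes tested, 6.31% were higher and 6.95% lower in CAC at an unadjusted p under 0.05. B cell markers were lower in CAC in 6 of 6 genes, with 1 at an unadjusted p under 0.05 (Cd79b, 6.96, 3.55 and 2.71 CPM in CONT and 1.44, 1.90 and 1.09 CPM in CAC), and their sum was 13.9 to 39.5 CPM in CONT and 5.17 to 11.7 CPM in CAC. T cell markers summed to 8.45 to 15.1 CPM in CONT and 7.14 to 8.62 CPM in CAC, with 0 of 6 genes at an unadjusted p under 0.05. Endothelial markers summed to 1115 to 1550 CPM in CONT and 1576 to 1653 CPM in CAC, also with 0 of 6. Of the 6 fibroblast and progenitor markers 2 were lower at an unadjusted p under 0.05, with sums of 1440 to 1509 CPM in CONT and 1362 to 1878 CPM in CAC. Mesothelial markers summed to 111 to 194 CPM in CONT and 62.8 to 201 CPM in CAC, and skeletal muscle markers to 8.10 to 45.8 CPM and 10.6 to 47.6 CPM, each with 1 of 6 genes higher at an unadjusted p under 0.05. Of the 6 epididymal markers, 1 was tested (Adam7) and was lower in CAC at an unadjusted p under 0.05. Of the macrophage markers 7 of 8 were lower and 1 of them had an unadjusted p under 0.05, and of the adipocyte markers 4 of 8 were higher, with 1 at an unadjusted p under 0.05. The part of any of these in the levels of the receptor, STAT and SOCS genes was not tested.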
